A study of Mus musculus with 11 samples.

Results

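Gene expression in the joint lining of mice with collagen-induced arthritis (CIA) was compared between a high-fat diet (3 RNA libraries) and a regular diet (3 libraries), to ask whether diet changes the arthritic tissue. By their labels, these are the 6 CIA libraries among the 11 of the series. RNA came from the synovial membrane of DBA/1 mice, an inbred strain that develops joint inflammation after immunisation with type II collagen. The same diet contrast in sham mice, 2 libraries on the high-fat and 3 on the regular diet, is given beside it. The genotype label is CIA or sham, and no transgene or deleted gene is named for any group. The labels give no age, sex, length of feeding or arthritis score, and do not say that the replicates, lettered a to c, are separate mice. The p-values therefore rest on the spread of these samples alone, which could be technical. The growth notes name a regular diet throughout, also for the 5 high-fat samples, so each comparison of diets assumes that titles and treatment labels are right.

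The synovial membrane is a thin lining of fibroblasts and macrophages on a bed of loose connective tissue that often contains fat cells. Fat cells make fatty acids from glucose: citrate leaves the mitochondrion, is cut to acetyl-CoA in the cytosol and is built into palmitate, which is then lengthened, desaturated and joined to glycerol as triglyceride. Insulin and glucose raise the genes of this pathway through the transcription factors SREBP-1c and ChREBP, and dietary fat is known to lower them in liver and fat. In arthritis the membrane swells with macrophages and neutrophils, and its fibroblasts secrete cytokines and matrix-degrading enzymes.

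Total counts ran from 14319731 to 17233521 over the 6 CIA libraries. Regular-diet replicate b stood apart from its group. In log2 counts-per-million (CPM) across genes, r was 0.982 for regular-diet a with c, 0.905 and 0.888 for b with each of them, and 0.921 to 0.943 for b with the high-fat libraries. The labels are followed throughout, and whether this library was exchanged with another was not tested. The high-fat libraries also varied among themselves, at r = 0.916 to 0.964. The summed transcripts-per-million (TPM) of 18 adipocyte markers were 65381, 24879 and 79946 on the regular diet (replicates a, b and c, an order kept below) and 5690.5, 24718 and 20982 on high fat. The fat cell signal was thus highest in regular-diet a and c, about equal in regular-diet b and high-fat b, and lowest in high-fat a. In bulk tissue, fewer cells of a type and less RNA per cell cannot be told apart.

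Lipid synthesis and mitochondrial fuel genes were lower, and myeloid and matrix genes higher, in the arthritic synovial membrane on the high-fat diet. Of 14892 genes tested, edgeR called 588 (3.95%) at an adjusted p under 0.05, of which 157 were higher (1.05% of genes tested) and 431 lower (2.89%) on high fat. Called genes are said to have risen or fallen below. All 588 had high-fat and regular-diet values that did not overlap, against 8.66% of tested genes not overlapping in the higher and 13.5% in the lower direction. The calls were made on these same values, so this adds no support to them. The median log2 fold change was 1.12 for the risers, -1.41 for the fallers and -0.03 for all genes tested. Without a threshold, 7085 of the 14892 genes were higher and 7805 lower on high fat. Counts of list members below are to be read beside these counts and the called shares. In 371 of the 431 fallers, regular-diet replicate b was the regular-diet library nearest the high-fat ones, and in 314 high-fat replicate a was the farthest from the regular-diet ones.

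These calls sit close to the threshold, with edgeR adjusted p-values from 0.033 to 0.0499. Leaving out any 1 of the other 10 libraries of the series left 0 calls in edgeR, with 2268 to 3427 genes at an unadjusted p under 0.05, whereas leaving out regular-diet CIA replicate b gave 3224 (21.8%, 1492 higher and 1732 lower), among them all 588. An edgeR fit of the 6 CIA libraries alone called 0, with 2179 genes at an unadjusted p under 0.05. DESeq2 called 2000 of 18297 genes (10.9%), which included all 588, and limma voom called 297 (1.99%), of which 289 were among the 588. Every call named below was likewise lost when any 1 of those 10 libraries was left out, and values without regular-diet replicate b are given beside the named genes that they move most.

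**Figure D1:**
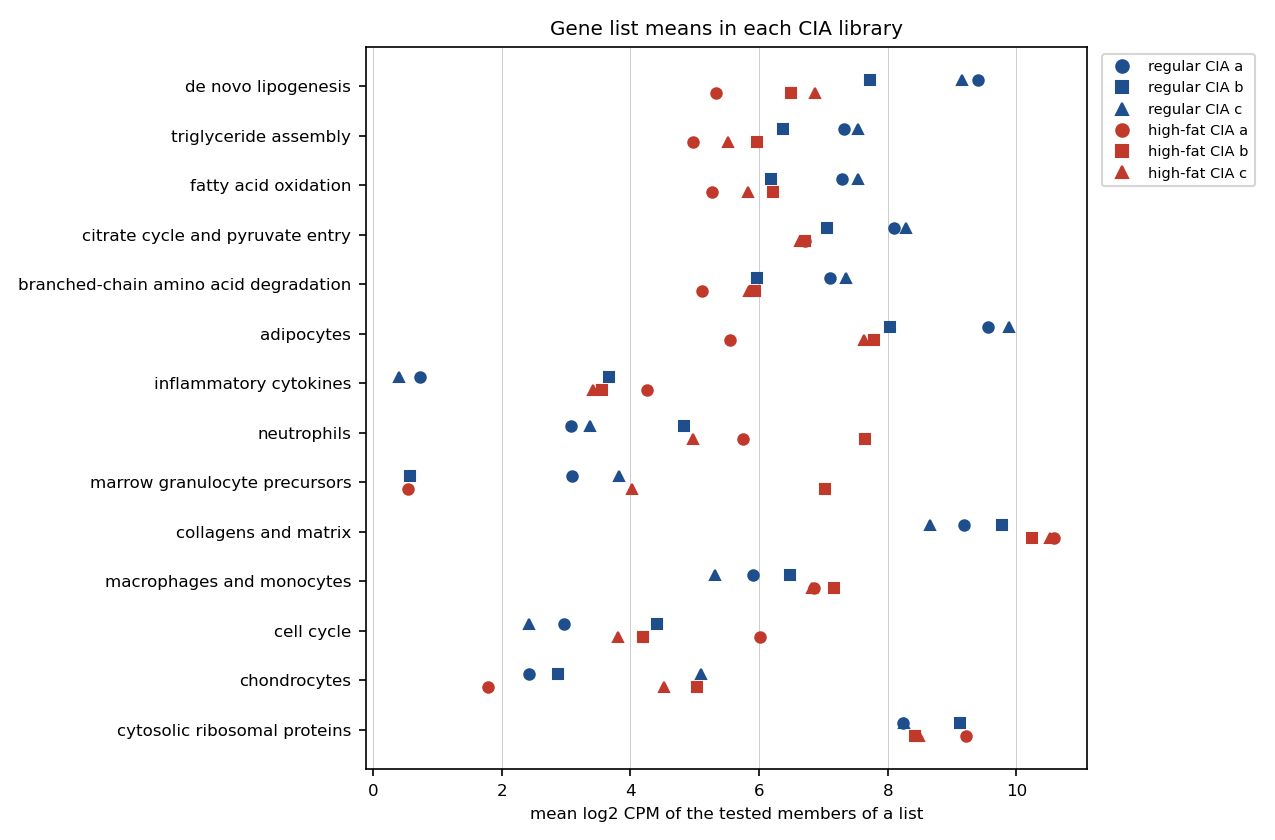
Mean log2 CPM of the tested members of 14 gene lists (x axis) in each of the 6 CIA libraries, regular diet in blue and high-fat diet in red, with circles, squares and triangles for replicates a, b and c. Lipogenesis means run from 5.33 to 6.87 on high fat and from 7.73 to 9.40 on the regular diet without overlap, whereas the cytokine mean of regular-diet replicate b (3.67) lies among the high-fat values of 3.42 to 4.26.

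Fatty acid synthesis showed the lowest median of all 47 gene lists with a tested member. Of its 17 tested genes 10 fell and 0 rose, against 2.89% and 1.05% of all genes tested. The median log2 fold change was -2.71. Elovl6, which lengthens palmitate to stearate, stood at 1042, 191 and 658 CPM on the regular diet and at 19.96, 21.9 and 30.4 CPM on high fat. Its high-fat values lay within a narrow band, and even the low regular-diet replicate b was several times above all of them. The log2 fold change was -4.71 ± 0.54 (SE, n = 3 and 3, edgeR adjusted p = 0.033). Fasn, the synthase that builds palmitate, stood at 13789.6, 3865 and 14109 CPM on the regular diet and at 129, 649 and 1165 CPM on high fat. The high-fat libraries spread more for Fasn than for Elovl6, with replicate a lowest and c highest, and the groups did not overlap (-4.03 ± 0.78, edgeR adjusted p = 0.0346). Scd1, the desaturase that makes oleate, ran at 40248, 8548 and 33198 CPM against 588, 1441 and 3316 CPM, and again no high-fat library reached the lowest regular-diet one (-3.94 ± 0.75, edgeR adjusted p = 0.0346).

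The steps that feed this pathway fell as well. Slc25a1, which carries citrate out of the mitochondrion, stood at 939, 251 and 905 CPM on the regular diet and 38.5, 69.3 and 100.2 CPM on high fat (-3.33 ± 0.53, edgeR adjusted p = 0.033). Acly, which splits that citrate to acetyl-CoA, stood at 1856, 354 and 999 CPM against 161, 189.5 and 219 CPM (-2.49 ± 0.49, edgeR adjusted p = 0.0346). Here regular-diet replicate b came closer to the high-fat libraries than it did for Slc25a1. Acss2, which makes acetyl-CoA from acetate, stood at 393, 79.8 and 230.4 CPM against 4.71, 18.4 and 17.96 CPM (-4.10 ± 0.65, edgeR adjusted p = 0.033). Acaca, the carboxylase that makes malonyl-CoA, stood at 3024, 699 and 3093 CPM against 68.2, 195 and 346 CPM (-3.48 ± 0.67, edgeR adjusted p = 0.0346). Me1, a malic enzyme that supplies NADPH, stood at 866, 173 and 714 CPM against 24.8, 58.6 and 62.03 CPM (-3.59 ± 0.58, edgeR adjusted p = 0.033). In each of these genes regular-diet replicate b was the lowest of its group and no high-fat library reached it. Acly, Acaca and, below, Mlxipl were chosen for naming after their values were seen.

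Some regulators of the pathway fell too, and no value is given here for the gene of SREBP-1c. Thrsp, a nuclear protein (Spot 14) that responds to thyroid hormone and promotes lipogenesis, stood at 796, 181 and 909 CPM on the regular diet and 2.15, 26.5 and 50.9 CPM on high fat (-4.57 ± 0.98, edgeR adjusted p = 0.0394). Mlxipl, which encodes ChREBP, stood at 182, 56.9 and 211 CPM against 7.1, 28.9 and 40.9 CPM (-2.55 ± 0.60, edgeR adjusted p = 0.0481). High-fat replicate a was the lowest library for both genes. Of the 14 insulin signalling genes tested 0 were called, with a median of -0.50.

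**Figure D2:**
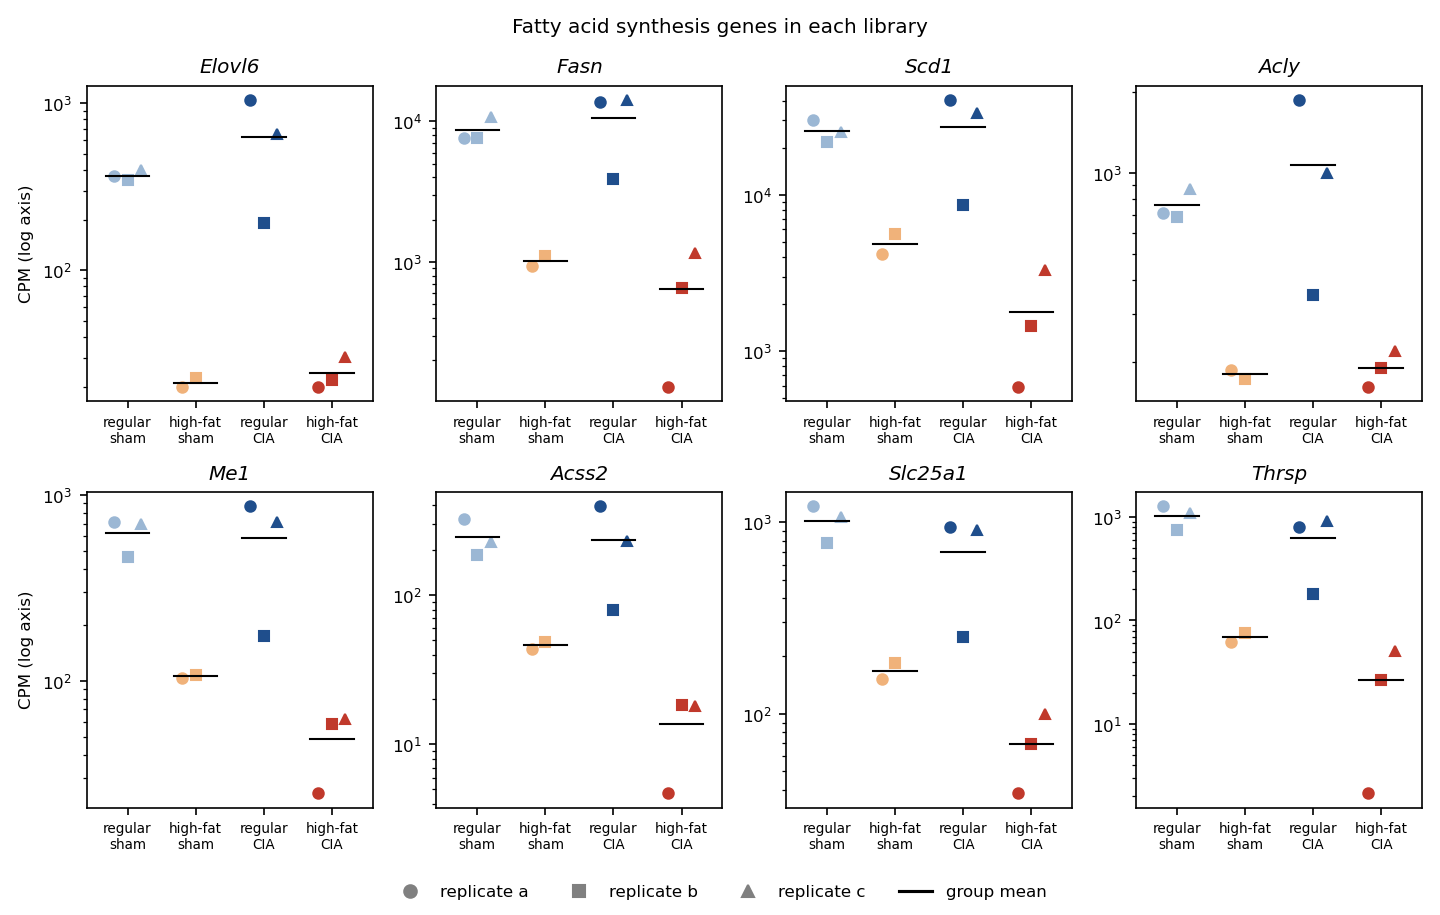
CPM on a log axis for 8 fatty acid synthesis genes in all 11 libraries, grouped by diet and by sham or CIA, with circles, squares and triangles for replicates a, b and c and a black line at the group mean. In each gene every high-fat library lies below every regular-diet library, and regular-diet CIA replicate b (blue square) comes nearest in CIA, as for Acly at 354 CPM.

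Start regions of these genes were searched because 10 members fell together. Promoter windows (250 bases before to 50 after a RefSeq start, GRCm38.p6) were held for 14 of the 17 listed genes and for 11762 of the genes tested. Each was searched on both strands for 4 motifs known from promoters, with overlapping matches of different motifs counted separately. The motif bound by NF-Y, CCAAT, was found in 11 of the 14 lipogenesis genes (78.6%) and in 42.5% of all genes with a window. A sterol response element, written TCACNCCAC, was found in 1 of 14 (7.14%, against 1.45% of all). The E-box, written CACGTG, was found in 3 (21.4%, against 11.1% of all). The GC box, written GGGCGG, was found in 8 (57.1%, against 64.9% of all). Among all 353 fallers with a window the CCAAT share was 47.0%, and among 134 risers 40.3%. A match is a description of letters and does not show that a factor binds. Among the windows of the called lipogenesis genes, only those of Fasn, Thrsp and Slc25a1 have more than 1 CCAAT match. The 1 sterol response element lies in a window of Mlxipl that is not printed. Of the 4 windows printed, 3 have several CCAAT matches, so they are not typical of the set. The window of Elovl6, the lipogenic gene with the largest fall, has no match to the sterol response element, E-box or CCAAT box. Each is written 5′ to 3′ on the gene's strand, and capitals mark matches to the sterol response element, E-box or CCAAT box on either strand.
Fasn, chr11:120824498-120824797, minus strand: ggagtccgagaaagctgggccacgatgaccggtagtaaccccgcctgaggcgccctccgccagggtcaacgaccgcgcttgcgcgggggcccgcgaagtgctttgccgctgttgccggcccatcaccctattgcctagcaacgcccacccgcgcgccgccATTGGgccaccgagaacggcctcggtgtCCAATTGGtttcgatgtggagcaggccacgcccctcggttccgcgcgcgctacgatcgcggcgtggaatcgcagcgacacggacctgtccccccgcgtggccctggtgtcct
Thrsp, chr7:97417501-97417800, minus strand: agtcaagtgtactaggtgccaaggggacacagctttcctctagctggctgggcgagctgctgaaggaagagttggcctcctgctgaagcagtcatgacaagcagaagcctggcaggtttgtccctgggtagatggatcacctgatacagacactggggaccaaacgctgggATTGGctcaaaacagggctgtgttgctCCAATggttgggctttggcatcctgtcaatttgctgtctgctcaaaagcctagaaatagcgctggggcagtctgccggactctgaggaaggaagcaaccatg
Slc25a1, chr16:17928170-17928469, minus strand: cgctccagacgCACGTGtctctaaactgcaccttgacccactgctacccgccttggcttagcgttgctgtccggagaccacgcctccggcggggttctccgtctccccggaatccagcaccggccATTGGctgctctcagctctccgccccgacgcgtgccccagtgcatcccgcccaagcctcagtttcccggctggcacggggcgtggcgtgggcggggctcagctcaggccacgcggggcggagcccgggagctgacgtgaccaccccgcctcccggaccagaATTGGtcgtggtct
Elovl6, chr3:129532136-129532435, plus strand: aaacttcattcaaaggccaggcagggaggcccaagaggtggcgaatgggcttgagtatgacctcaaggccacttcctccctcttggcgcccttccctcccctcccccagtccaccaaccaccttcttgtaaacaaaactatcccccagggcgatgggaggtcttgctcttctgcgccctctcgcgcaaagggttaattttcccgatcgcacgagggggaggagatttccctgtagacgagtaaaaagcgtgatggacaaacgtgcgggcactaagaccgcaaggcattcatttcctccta

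Triglyceride assembly fell along with fatty acid synthesis, with 6 of 13 tested genes down, 0 up and a median of -1.64. Of all genes tested 2.89% fell. Agpat2, which adds the second fatty acid to the glycerol backbone, stood at 405, 163 and 441 CPM on the regular diet and 33.3, 69.7 and 73.7 CPM on high fat (-2.51 ± 0.42, edgeR adjusted p = 0.0331). Dgat2, which adds the last fatty acid, stood at 921, 322 and 1204 CPM against 74.1, 151 and 142 CPM (-2.74 ± 0.46, edgeR adjusted p = 0.0331). Dgat1, its unrelated counterpart, changed less, at 209, 133 and 256 CPM against 60.5, 101 and 61.4 CPM (-1.42 ± 0.28, edgeR adjusted p = 0.0348). Mogat1, which acylates monoacylglycerol, stood at 17.3, 5.04 and 16.7 CPM against 0.407, 2.35 and 2.16 CPM (-2.99 ± 0.60, edgeR adjusted p = 0.0356). Regular-diet replicate b was again the nearest library in these 4 genes. Bscl2, which encodes the droplet protein seipin, was the only 1 of 18 lipolysis and lipid droplet genes called (-1.24 ± 0.27, edgeR adjusted p = 0.0405), although 16 of the 18 were lower (median -1.51).

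Markers of the fat cell itself were lower in all 18 tested members, with a median of -1.97, but only Pparg and Thrsp passed. Pparg, the master regulator of fat cells, stood at 236, 83.8 and 277 CPM on the regular diet and 26.5, 67.5 and 58.6 CPM on high fat (-1.97 ± 0.44, edgeR adjusted p = 0.0417). Adipoq, which encodes the hormone adiponectin, stood at 1383, 483 and 1571 CPM against 81.3, 415 and 380.01 CPM and did not pass (-1.97 ± 0.59, edgeR adjusted p = 0.0829). The groups did not overlap for Adipoq, but regular-diet replicate b lay close to high-fat replicates b and c. Lep, which encodes the satiety hormone leptin, did overlap, at 172, 39.4 and 244 CPM against 17.7, 51.1 and 62.3 CPM (-1.80 ± 0.61, edgeR adjusted p = 0.114). Cd36 (-1.19 ± 0.52, edgeR adjusted p = 0.203), Lpl (-1.90 ± 0.52, edgeR adjusted p = 0.0683) and Fabp4 (-1.74 ± 0.50, edgeR adjusted p = 0.0753), which take up, release and bind fatty acids, did not pass either. Rbp4, which carries retinol and is secreted by fat and liver, fell from 242, 78.6 and 285 CPM to 29.7, 34.96 and 53.6 CPM (-2.35 ± 0.46, edgeR adjusted p = 0.0346).

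Because the fat cell list moved with the lipid genes, levels were also set against it. The mean log2 CPM of 16 lipogenesis genes minus that of 17 adipocyte markers, leaving out the 1 gene in both lists, was -0.17, -0.31 and -0.78 in regular-diet CIA and -0.22, -1.35 and -0.79 in high-fat CIA. These differences overlapped between the diets, and high-fat replicate a, with the least fat cell RNA, lay beside regular-diet a. In sham the same quantity was -0.95, -1.12 and -0.96 on the regular diet and -1.96 and -2.10 on high fat, without overlap. With the adipocyte mean of each library as a covariate, chosen after the data were seen, edgeR called 126 genes higher and 22 lower (0.846% and 0.148% of genes tested), of which 7 and 7 were among the 588. All 588 kept their direction in that fit, with medians of 0.94 for the risers and -0.70 for the fallers. The lipogenesis median was -1.21 there with 0 of 17 called, and Elovl6 stood at -3.40 ± 0.71 (edgeR adjusted p = 0.054). How much of each fall goes with the amount of fat tissue in a library was not tested further.

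Enzymes that burn fuel in mitochondria were lower too, by less. All 19 tested genes of the citrate cycle and pyruvate entry were lower and 7 fell (median -1.08), while 2.89% of all genes tested fell. Mpc1, a subunit of the mitochondrial pyruvate carrier, stood at 300.3, 98.7 and 296 CPM on the regular diet and 53.1, 62.1 and 60.5 CPM on high fat (-1.98 ± 0.37, edgeR adjusted p = 0.0345). The high-fat libraries were nearly equal for Mpc1, and regular-diet replicate b lay between them and its own group. Pdha1, a subunit of pyruvate dehydrogenase, stood at 956, 342 and 1104 CPM against 185, 220.1 and 221 CPM (-1.94 ± 0.38, edgeR adjusted p = 0.0346). Pcx, the carboxylase that refills the cycle and supports lipogenesis in fat, stood at 1382, 365 and 1431 CPM against 33.6, 180.5 and 171 CPM (-3.04 ± 0.66, edgeR adjusted p = 0.0405). Idh3b, a subunit of the cycle's isocitrate dehydrogenase, had the smallest change of those named here (-1.04 ± 0.23, edgeR adjusted p = 0.0401).

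Of 23 fatty acid oxidation genes 7 fell and 0 rose (median -1.18), against 2.89% and 1.05% of all genes tested. Hadh, a dehydrogenase of the oxidation spiral, stood at 390.05, 141 and 447 CPM against 43.1, 95.5 and 87.7 CPM (-2.11 ± 0.42, edgeR adjusted p = 0.0351). Cpt2, which hands fatty acids to the mitochondrial matrix, fell less (-1.34 ± 0.28, edgeR adjusted p = 0.0375), as did Acads, the short-chain dehydrogenase (-1.44 ± 0.30, edgeR adjusted p = 0.0375), and Etfb, which passes the electrons on (-1.17 ± 0.25, edgeR adjusted p = 0.0375). Synthesis and oxidation of fatty acids thus moved in the same direction in these libraries. Breakdown of branched-chain amino acids, a carbon source of fat cells, had 18 of 18 tested genes lower and 6 that fell (median -1.21). Ivd of leucine breakdown stood at 214, 92.7 and 273 CPM against 29.3, 73.5 and 61.8 CPM (-1.82 ± 0.41, edgeR adjusted p = 0.0419), and Bckdha, of the complex that commits all 3 amino acids, at 179.7, 90.8 and 222 CPM against 40.4, 74.2 and 62.6 CPM (-1.48 ± 0.32, edgeR adjusted p = 0.0405). Auh and Acad8, of leucine and valine breakdown, had small but even changes (-0.80 ± 0.15 and -0.74 ± 0.14, edgeR adjusted p = 0.0346 for both).

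Oxidative phosphorylation differed from these lists in that none of its 24 nuclear genes was called, although all 24 were lower (median -0.77). Atp5b, the catalytic subunit of ATP synthase, stood at 1534, 618 and 1957 CPM on the regular diet and 779, 636 and 593 CPM on high fat (-1.03 ± 0.38, edgeR adjusted p = 0.138). Here regular-diet replicate b fell within the high-fat range. Without that library 18 of the 24 were called, all lower (median -0.98), against 11.7% of all genes called lower in that fit. Glycolysis, which runs in the cytosol, had 0 of 17 genes called and a median of -0.26.

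Cholesterol synthesis did not move as a whole, with 3 of 18 tested genes down, 0 up and a median of -0.15. Fdft1, the squalene synthase, stood at 136, 71.8 and 192 CPM on the regular diet and 35.8, 28.8 and 32.4 CPM on high fat (-2.04 ± 0.35, edgeR adjusted p = 0.0333). Insig1, which holds the sterol-sensing complex in the endoplasmic reticulum and is itself a target of SREBPs, stood at 234, 119 and 286 CPM against 58.4, 79.1 and 68.7 CPM (-1.63 ± 0.30, edgeR adjusted p = 0.0343). Lss, which closes the sterol rings, stood at 38.7, 15.2 and 33.6 CPM against 11.1, 10.9 and 13.1 CPM (-1.32 ± 0.30, edgeR adjusted p = 0.0417). Of 10 brown and beige fat genes 2 fell, the muscle and brown fat cytochrome oxidase subunit Cox7a1 (-2.27 ± 0.48, edgeR adjusted p = 0.0375) and Ppara, a nuclear receptor that drives fatty acid oxidation (-2.64 ± 0.58, edgeR adjusted p = 0.0405).

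Outside the lists, the largest fall among the named genes was that of Oxtr, the oxytocin receptor. It stood at 56.4, 10.9 and 29.2 CPM on the regular diet and 0.64, 1.21 and 0.54 CPM on high fat, so that every high-fat library was far below the lowest regular-diet one (-5.33 ± 0.60, edgeR adjusted p = 0.033). Oxtr stayed called with the adipocyte covariate (-3.73 ± 0.71, edgeR adjusted p = 0.0498). Rassf6, a Ras-association domain protein, stood at 26.5, 10.2 and 37.8 CPM against 0.175, 2.83 and 2.04 CPM (-3.88 ± 0.74, edgeR adjusted p = 0.0346). Ncan, a proteoglycan best known from brain, stood at 34.98, 7.72 and 12.02 CPM against 0.524, 0.603 and 3.48 CPM (-3.57 ± 0.81, edgeR adjusted p = 0.0431).

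Some genes of myeloid cells rose, and the macrophage and monocyte list was mostly higher though few of its members were called. Of 17 macrophage and monocyte markers 16 were higher and 2 rose (median 1.05), while 1.05% of all genes tested rose. Itgam, the integrin CD11b, stood at 63.1, 106 and 63.3 CPM on the regular diet and 265, 389 and 155 CPM on high fat (1.80 ± 0.40, edgeR adjusted p = 0.0405). Lyz2, the lysozyme of macrophages and neutrophils, stood at 912, 785 and 539.7 CPM against 1868, 2637 and 1561 CPM (1.44 ± 0.33, edgeR adjusted p = 0.0437), and its reads may be shared with its close copy Lyz1. In both, high-fat replicate b was the highest library, and the regular-diet library nearest the high-fat ones was b for Itgam and a for Lyz2. Ccr1, a chemokine receptor of monocytes and neutrophils, stood at 23.2, 24.9 and 13.9 CPM against 110.1, 160.5 and 52.7 CPM (2.38 ± 0.43, edgeR adjusted p = 0.0333). Olr1, a scavenger receptor for oxidised low-density lipoprotein, stood at 4.67, 5.43 and 8.49 CPM against 25.5, 38.7 and 25.5 CPM (2.27 ± 0.36, edgeR adjusted p = 0.033). In regular-diet replicate b both genes lay near the level of its group, and Olr1 stayed called with the adipocyte covariate (2.61 ± 0.51, edgeR adjusted p = 0.0498).

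Receptors for the complement fragments that draw in leukocytes rose, and an inhibitor of the terminal complex fell. C3ar1 stood at 46.4, 62.2 and 32.02 CPM on the regular diet and 104, 109 and 98.4 CPM on high fat (1.15 ± 0.23, edgeR adjusted p = 0.0348). C5ar1 stood at 9.91, 23.6 and 12.02 CPM against 48.4, 86.4 and 27.7 CPM (1.84 ± 0.44, edgeR adjusted p = 0.0486). Its highest regular-diet library, replicate b, nearly reached the lowest high-fat one. Cd59a, whose reads may be shared with Cd59b, fell from 72.5, 37.5 and 80.6 CPM to 14.8, 26.9 and 29.8 CPM (-1.41 ± 0.33, edgeR adjusted p = 0.0451). The 19 complement genes tested had a median of 0.16. Of 24 chemokines 20 were higher and 4 lower (median 1.49). Only Ccl9, a macrophage-derived ligand of CCR1, rose, from 46.8, 39.7 and 41.1 CPM to 163, 123 and 86.96 CPM (1.54 ± 0.31, edgeR adjusted p = 0.0348). Without regular-diet replicate b 12 of the 24 were called higher (median 2.3), against 10.1% of all genes tested in that fit.

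The largest rise among the named genes was that of Arg1, the arginase of alternatively activated macrophages and of some neutrophils, at 0.442, 3.93 and 0.129 CPM on the regular diet and 12.3, 121 and 26.2 CPM on high fat (5.15 ± 1.23, edgeR adjusted p = 0.0491, and 7.50 ± 1.35 without regular-diet replicate b, adjusted p = 0.00639). Its size is uncertain, since replicate c on the regular diet held few counts and high-fat replicate b was several times above the other two. The other 13 tested genes of the lining and alternatively activated macrophage list were not called (list median -0.05). Samsn1, an adaptor of blood cells, stood at 3.16, 5.69 and 3.54 CPM against 15.7, 52.1 and 9.61 CPM (2.64 ± 0.63, edgeR adjusted p = 0.0487). Plek, a protein kinase C substrate of platelets and leukocytes, stood at 48.1, 65.4 and 39.7 CPM against 148, 495 and 121 CPM (2.32 ± 0.54, edgeR adjusted p = 0.0467). High-fat replicate b was the highest library for all 3. In that library the 15 neutrophil markers summed to 46142 TPM, against 8446 and 7702 in high-fat a and c and 2519, 5148 and 3709.8 in regular-diet CIA. The part of neutrophils in these rises was not tested.

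A different order of libraries, with high-fat replicate a highest, was seen for Aldh1a2, Ereg, Selp and Ctsk. Aldh1a2, which makes retinoic acid, stood at 3.6, 10.01 and 2.51 CPM on the regular diet and 47.4, 28.6 and 27.7 CPM on high fat (2.68 ± 0.54, edgeR adjusted p = 0.0349). Ereg, an epidermal growth factor receptor ligand, stood at 1.96, 3.08 and 0.964 CPM against 18.4, 6.45 and 11.5 CPM (2.59 ± 0.52, edgeR adjusted p = 0.0349). Selp, the P-selectin by which activated endothelium catches leukocytes, stood at 15.6, 54.6 and 19.4 CPM against 185, 104 and 167 CPM (2.35 ± 0.56, edgeR adjusted p = 0.0481). Regular-diet replicate b was the highest of its group for these 3 genes and still below every high-fat library. Without it Aldh1a2 stood at 3.50 ± 0.47 (edgeR adjusted p = 0.00236) and Selp at 3.12 ± 0.51 (edgeR adjusted p = 0.00453). Selp was the 1 gene of 16 endothelial markers called, and that list had a median of 0.20. Bend4 stood at 4.42, 3.21 and 3.79 CPM against 13.04, 25.4 and 7.51 CPM (2.01 ± 0.42, edgeR adjusted p = 0.036).

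**Figure D3:**
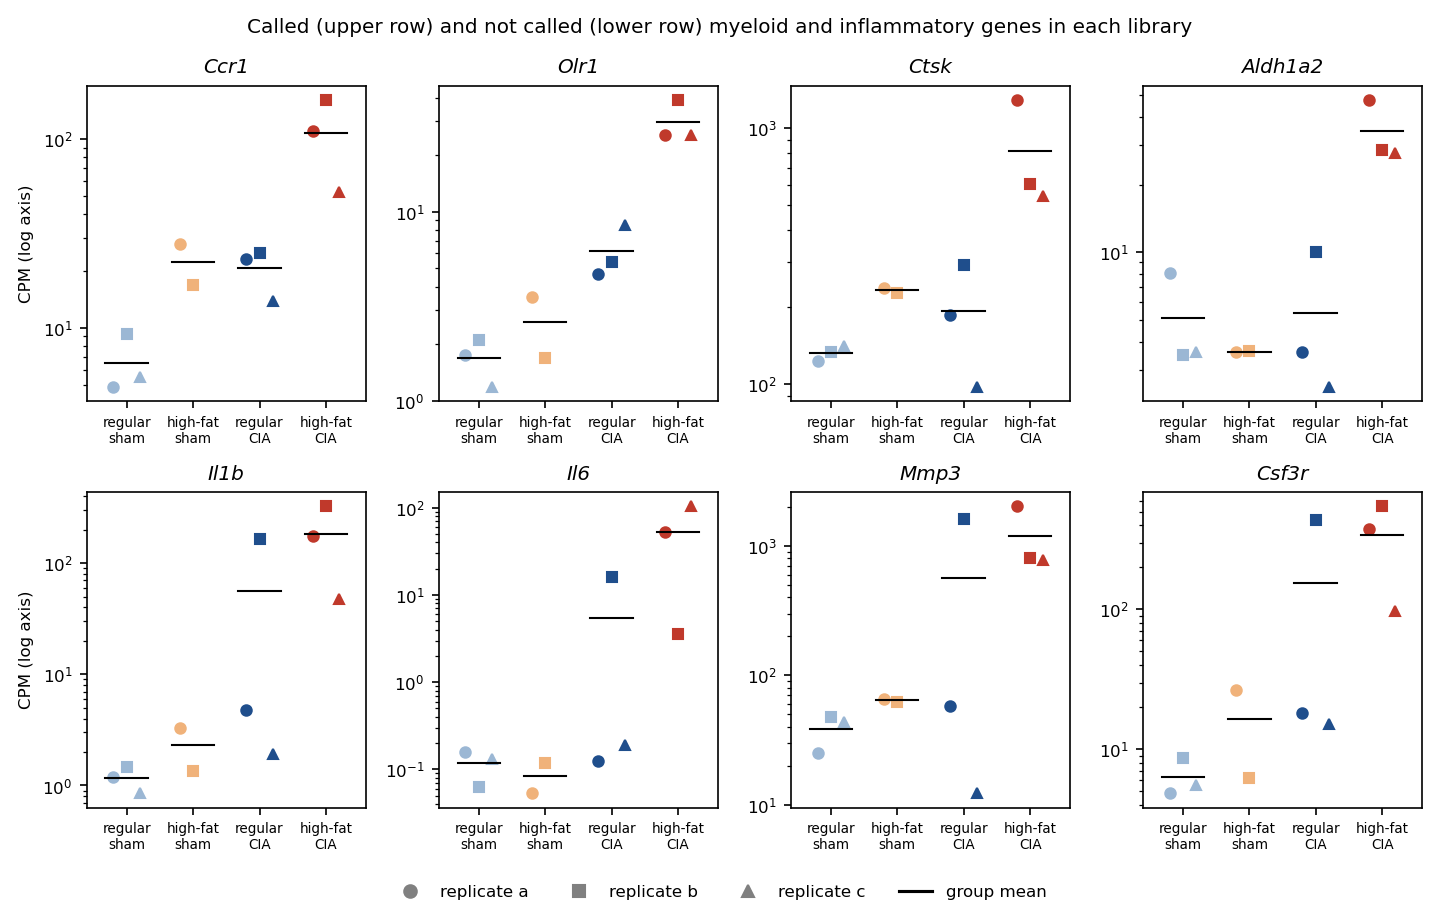
CPM on a log axis for 4 genes that rose on high fat in CIA (upper row) and 4 that did not pass (lower row) in all 11 libraries, with circles, squares and triangles for replicates a, b and c and a black line at the group mean. In the lower row regular-diet CIA replicate b (blue square) lies with the high-fat CIA libraries, as for Mmp3 at 1609 CPM against 57.6 and 12.3 CPM in replicates a and c.

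Matrix genes and the proteases that cut matrix were higher. All 24 collagen and matrix genes were higher and 2 rose (median 1.05). Of 21 matrix-degrading proteases and inhibitors 19 were higher and 3 rose (median 0.86). Among all 14892 genes tested 7085 were higher and 1.05% rose. Ctsk, the collagen-cutting cathepsin of osteoclasts and synovial fibroblasts, stood at 187, 293 and 97.4 CPM on the regular diet and 1286, 608 and 542 CPM on high fat (2.08 ± 0.43, edgeR adjusted p = 0.036). Ctss, the cathepsin of antigen-presenting cells, stood at 144, 229 and 94.7 CPM against 677, 539 and 371 CPM (1.76 ± 0.35, edgeR adjusted p = 0.0346). Both were highest in high-fat replicate a. Adamts1, a secreted protease of proteoglycans, stood at 66.6, 76.1 and 67.2 CPM against 240.3, 107 and 273 CPM (1.56 ± 0.33, edgeR adjusted p = 0.0389), with high-fat replicate b near the regular-diet libraries. Loxl2, which crosslinks collagen, stood at 102, 100.05 and 67.4 CPM against 373, 185 and 189 CPM (1.47 ± 0.32, edgeR adjusted p = 0.0394). Thbs1, an adhesive glycoprotein, stood at 46.2, 52.9 and 80.5 CPM against 194, 272 and 182 CPM (1.85 ± 0.41, edgeR adjusted p = 0.0407). Pdgfra, a receptor that marks sublining fibroblasts, rose from 198, 222 and 142 CPM to 316, 344 and 414 CPM (0.93 ± 0.22, edgeR adjusted p = 0.0451). Regular-diet replicate b lay near its own group for Adamts1, Loxl2, Thbs1 and Pdgfra.

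Cytokines and the matrix metalloproteinases below were not called, and for most of them this turned on regular-diet replicate b. All 15 tested inflammatory cytokine genes were higher on high fat, with a median of 1.47 and 0 called. Il1b, a driver of joint inflammation, stood at 4.8, 163 and 1.93 CPM on the regular diet and 174, 323 and 47.7 CPM on high fat (1.69 ± 1.28, edgeR adjusted p = 0.457). Without regular-diet replicate b its log2 fold change was 5.75 ± 0.89 (edgeR adjusted p = 0.00394). Il6, another inflammatory cytokine, stood at 0.126, 16.03 and 0.193 CPM against 52.6, 3.56 and 103 CPM (3.28 ± 1.48, edgeR adjusted p = 0.212, and 8.31 ± 1.52 without replicate b, adjusted p = 0.00677, a size set by libraries near 0). Mmp3, which degrades cartilage matrix, stood at 57.6, 1609 and 12.3 CPM against 2013, 799.6 and 773 CPM (1.09 ± 1.25, edgeR adjusted p = 0.641, and 5.10 ± 0.80 without replicate b, adjusted p = 0.00401). Replicate b on the regular diet held values within the high-fat range in all 3 of these genes, while a and c lay below every high-fat library. Ptgs2, the inducible cyclooxygenase, was similar, with replicate b just under the high-fat libraries, at 1.64, 18.8 and 1.29 CPM against 29.3, 56.1 and 23.4 CPM (2.32 ± 0.90, edgeR adjusted p = 0.156, and 4.62 ± 0.55 without replicate b, adjusted p = 0.00164). Genes that tissue handling can induce were also higher in regular-diet replicate b than in the rest of its group. The 13 dissociation and immediate early genes had list means of 4.52, 6.56 and 4.67 log2 CPM on the regular diet. On high fat the means were 5.50, 6.27 and 5.67. Of the 13 genes 0 were called with all libraries (median 0.25). Without replicate b 6 were called higher (median 1.25), against 10.1% of all genes tested in that fit. Fos, an immediate early gene, stood at 16.3, 418 and 20.5 CPM against 196, 145 and 86.96 CPM (-0.09 ± 1.02, edgeR adjusted p = 0.968, and 2.96 ± 0.53 without replicate b, adjusted p = 0.00644). The part of handling in the cytokine values was not tested.

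Tnf, a cytokine targeted in human rheumatoid arthritis, was low and overlapped, at 2.08, 5.63 and 1.99 CPM against 3.67, 17.1 and 2.82 CPM (1.28 ± 0.76, edgeR adjusted p = 0.338, and 1.94 ± 0.85 without replicate b, adjusted p = 0.133). Mmp13, the main collagenase of cartilage, overlapped as well, at 151, 753 and 12.99 CPM against 487, 789 and 241 CPM (0.73 ± 1.00, edgeR adjusted p = 0.707, and 2.63 ± 0.92 without replicate b, adjusted p = 0.072). Il17a had at most 2 counts in any library and was not tested. Without regular-diet replicate b 11 of the 15 cytokine genes were called higher, against 10.1% of all genes tested in that fit, and the median was 3.99. The mean of the list was 0.73 and 0.40 log2 CPM in regular-diet replicates a and c, near the floor, so the size of that change is uncertain. The lipogenesis list, in contrast, had a median of -3.11 without replicate b, against -2.71 with it. Without replicate b 14 of its 17 genes were called, all lower, against 11.7% of all genes called lower in that fit. Replicate b had the lowest lipogenesis mean of the regular-diet CIA libraries, at 7.73 log2 CPM against 9.4 and 9.15 in a and c. Leaving it out could therefore only deepen the fall of that mean, and is no test of the lipogenesis change.

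**Figure D4:**
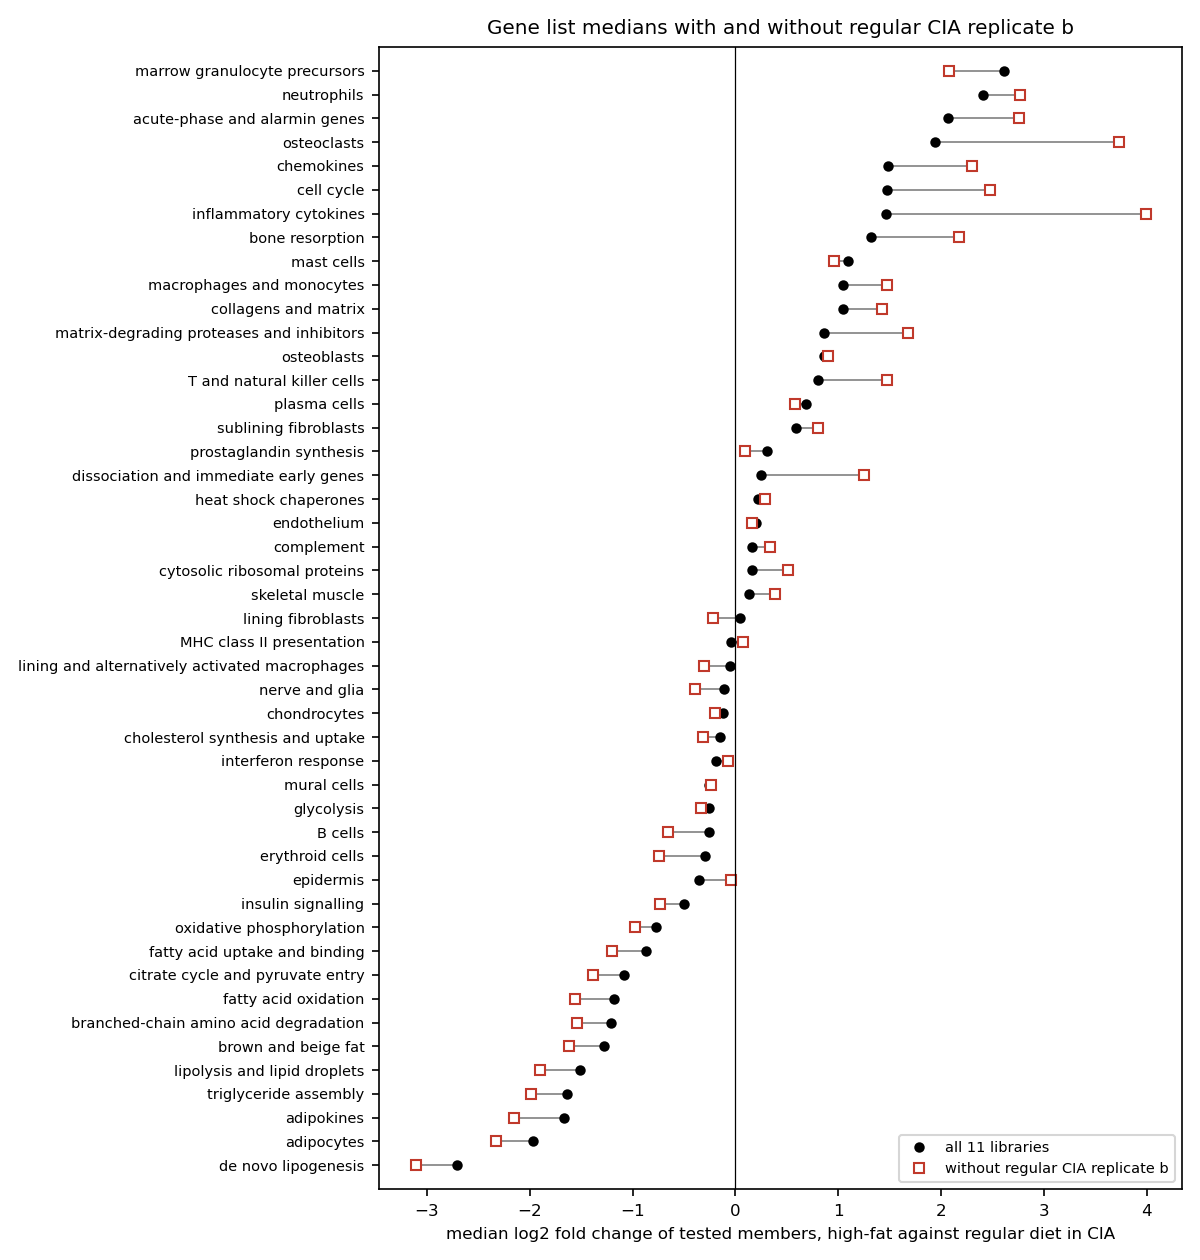
Median log2 fold change of the tested members of 47 gene lists, high-fat against regular diet in CIA, with all libraries (black dots) and without regular-diet CIA replicate b (open red squares). Inflammatory cytokines moved from 1.47 to 3.99 and osteoclast markers from 1.94 to 3.73, while lipogenesis moved from -2.71 to -3.11.

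Neutrophil, marrow and cell cycle lists had 0 called members with all libraries and differed widely among the 3 high-fat libraries. The 15 neutrophil markers were all higher (median 2.41). Without regular-diet replicate b 8 of them were called higher (median 2.77), against 10.1% of all genes tested in that fit. S100a8, an alarmin of neutrophils, stood at 97.2, 166 and 151 CPM on the regular diet and 259, 1646 and 284 CPM on high fat (2.41 ± 1.15, edgeR adjusted p = 0.236). Csf3r, the neutrophil growth factor receptor, overlapped, at 18.1, 432 and 15.1 CPM against 375, 544 and 97.7 CPM (1.13 ± 1.15, edgeR adjusted p = 0.598, and 4.35 ± 0.85 without replicate b, adjusted p = 0.0087). Marrow granulocyte precursor genes split the high-fat group, with a list mean of 0.54, 7.02 and 4.03 log2 CPM against 3.09, 0.58 and 3.83 on the regular diet. Their gene Ngp stood at 6.29, 1739 and 314 CPM on high fat and 131, 11.97 and 244 CPM on the regular diet. Marrow genes were thus lowest in high-fat a and regular-diet b and highest in high-fat b. Within each diet the adipocyte list ranked the libraries in the same order, with means of 9.56, 8.03 and 9.88 log2 CPM on the regular diet and 5.55, 7.78 and 7.63 on high fat. The 12 erythroid genes, with 0 called and a median of -0.29, had the same lowest libraries, at 3.73, 0.87 and 2.98 log2 CPM against -0.12, 3.88 and 2.22. What part these other tissues have in the diet differences was not tested. All 20 cell cycle genes were higher (median 1.48, 0 called), and Mki67 stood at 45.96, 133 and 22.95 CPM against 263, 129 and 58.5 CPM (1.16 ± 0.89, edgeR adjusted p = 0.466, and 2.13 ± 0.99 without replicate b, adjusted p = 0.154).

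The genes of antigen presentation and of interferon had medians near that of all genes. Of 10 MHC class II genes 4 were higher and 6 lower (median -0.04), and H2-Aa stood at 648, 555 and 364 CPM on the regular diet and 577, 459.98 and 484 CPM on high fat (-0.04 ± 0.23, edgeR adjusted p = 0.931). Of 19 interferon response genes 9 were higher and 10 lower (median -0.19). T and natural killer cell markers had a median of 0.80 and B cell markers one of -0.26, with 0 called in either. Of the 17 T and natural killer cell markers tested 16 were higher. Without regular-diet replicate b 6 of those 17 were called higher (median 1.48), against 10.1% of all genes tested in that fit. Markers of muscle (median 0.13), cartilage (-0.12), bone-forming cells (0.86), vessel walls (-0.26) and nerve (-0.11) had 0 called. Prg4, the lubricin of lining fibroblasts, stood at 6058, 3976 and 9398 CPM against 8541, 8275 and 17618 CPM (0.83 ± 0.43, edgeR adjusted p = 0.277), with ranges that overlapped. Cytosolic ribosomal protein genes, a measure of sample composition and quality, had a median of 0.16 with 0 of 30 called, and a median of 0.51 without regular-diet replicate b. Their summed TPM were 35069, 59387 and 33624 on the regular diet and 62306, 41923 and 44600.1 on high fat, so that regular-diet b and high-fat a were highest, the libraries in which the marrow genes were lowest.

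The same genes leaned the same way in sham mice, whose libraries enter no side of the CIA contrast but share its spread estimate. There edgeR called 0 genes for diet (0.0%), with 1165 (7.82%) at an unadjusted p under 0.05. DESeq2 called 114 there, limma voom 0, and edgeR 441 when fitted to the sham libraries alone. Of the 431 genes that fell in CIA, 413 (95.8%) were lower on high fat in sham, against 51.2% of all genes tested, with a median of -0.66. Of the 157 that rose, 146 (93.0%) were higher in sham, against 48.7% of all genes tested, with a median of 0.45. The adipocyte markers were lower in high-fat sham as well, in 16 of 18 genes with a median of -0.68. Their summed TPM were 92746, 81428 and 92910.2 in regular-diet sham and 42934 and 51327 in high-fat sham. How much of the agreement goes with the amount of fat tissue was not tested. At an unadjusted p under 0.05, 196 of the fallers and 52 of the risers moved the same way in sham. At that threshold 2 and 1 moved the opposite way, and 4.74% of all genes tested were lower and 3.08% higher. Because the called genes were picked with the spread estimate that both contrasts share, their p-values in sham are not independent of that choice. All genes tested are therefore not a matched baseline for these counts.

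Elovl6 stood at 367, 345 and 396 CPM in regular-diet sham and 20.03 and 22.5 CPM in high-fat sham, close to its levels in high-fat CIA (-4.12 ± 0.63 in sham, edgeR adjusted p = 0.341). Fasn stood at 7633, 7676 and 10695 CPM against 939 and 1104 CPM in sham (-3.09 ± 0.89, edgeR adjusted p = 0.474). The lipogenesis list had a median of -2.34 in sham, with 15 of 17 genes lower. Dgat2 did not share this, at 755, 876 and 938 CPM in regular-diet sham and 736 and 814 CPM in high-fat sham. Lep went the other way, at 173, 238 and 150.4 CPM against 437 and 472 CPM in sham (1.28 ± 0.65, edgeR adjusted p = 0.68). Leptin RNA was thus highest in high-fat sham and lowest in high-fat CIA replicate a.

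The difference between the diet effects in CIA and in sham was tested as an interaction, and edgeR called 0 genes, with 635 (4.26%) at an unadjusted p under 0.05, while DESeq2 called 21 and limma voom 0. No gene is therefore shown by edgeR to respond to diet in CIA mice differently from sham. The interaction estimate was -2.59 ± 0.65 for Dgat2 and -3.08 ± 0.89 for Lep (edgeR adjusted p = 0.989 for both), which were chosen after their values were seen. Among the risers it was 2.28 ± 0.50 for Adamts1 (edgeR adjusted p = 0.919) and 3.17 ± 0.81 for Aldh1a2 (edgeR adjusted p = 0.989). Adamts1 stood at 65.5, 88.9 and 115 CPM in regular-diet sham and 48.1 and 61.5 CPM in high-fat sham, and Aldh1a2 at 8.11, 3.49 and 3.61 CPM against 3.58 and 3.62 CPM.

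**Figure D5:**
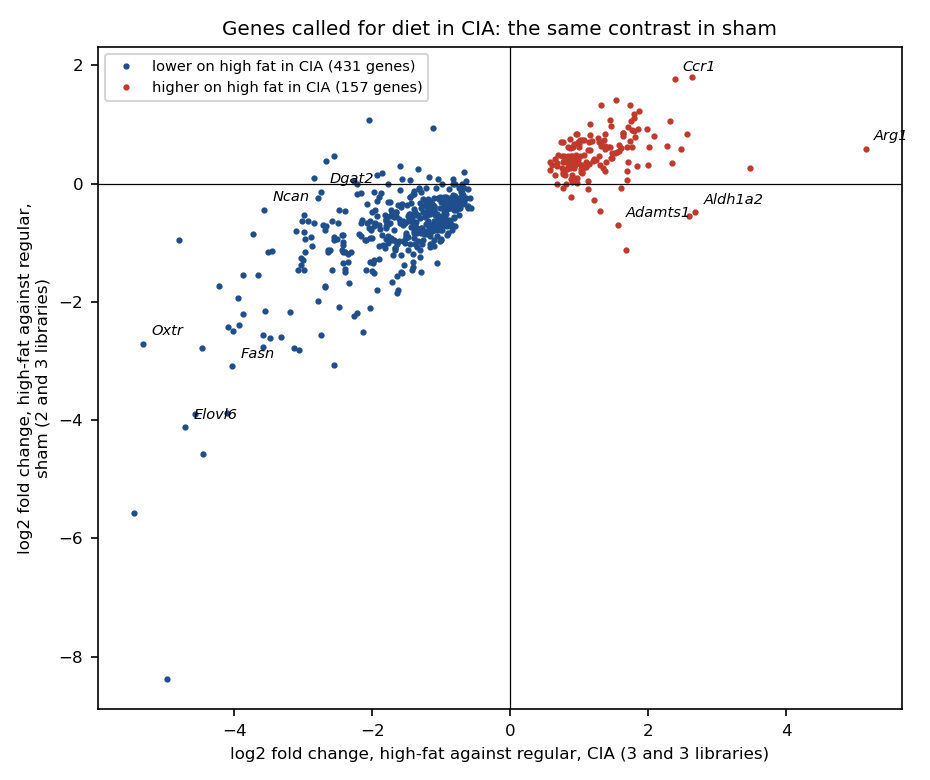
Each point is 1 of the 588 genes called for diet in CIA, with its log2 fold change in CIA (x axis, 3 and 3 libraries) and in sham (y axis, 2 high-fat and 3 regular-diet libraries), fallers in blue and risers in red. Of the fallers 413 of 431 lie below 0 in sham and of the risers 146 of 157 above it, with Dgat2 at -0.14 and Aldh1a2 at -0.49 in sham as examples near or across the line.

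The authors' deposited table gives 695 genes at a q-value under 0.05 for this comparison, 278 higher and 417 lower in high-fat CIA. Of the 588 genes called here, 146 risers and 337 fallers are among them in the same direction. In the authors' deposited table Elovl6 has a log2 fold change of -4.69 (q = 1.39e-11) and Oxtr one of -5.32 (q = 1.39e-11).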

How the data were processed

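RNA of the synovial membrane was sequenced in 11 libraries, extracted with Trizol and prepared with a provider's in-house kit, per the labels' protocols. Whether the kit marks strand is not given in the sources used here, so overlapping antisense genes cannot be told apart. The authors deposited expected counts, which are estimated counts per gene and need not be whole (11.98% were not whole at a tolerance of 0.001). They also deposited FPKM and TPM values, as their column names say, per the file headers. A log2 fold change and a q-value per gene and comparison complete the authors' deposited table. The submitters' processing notes name Bowtie2 2.2.5, RSEM 1.2.12, DESeq2 1.4.5 and GRCm38.p6 without their roles. The table lists 18804 genes, 458 of them without any count, and 1 empty line.

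Counts were rounded to whole numbers, filtered with filterByExpr (14892 genes left), scaled by TMM and fitted in edgeR 4.0.16 (quasi-likelihood, robust) with 1 mean per group over all 11 libraries. Calls needed a two-sided p under 0.05 after Benjamini-Hochberg adjustment. A value ± another is a log2 fold change ± SE, the SE being derived from the F statistic (fold change over the root of F). CPM use TMM-scaled totals, and list means use log2 CPM with a prior count of 2. Versions were R 4.3.3, DESeq2 1.42.0, limma 3.58.1, Python 3.11.15, pandas 2.3.3 and matplotlib 3.10.9. The fit was tested on simulated counts. No pair of libraries agreed within counting noise (chi-square per degree of freedom 28.96 to 470.1 over the 6 CIA libraries). Precision therefore rests on the spread of few libraries.

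The comparison, the 48 gene lists (678 genes) and the tests were chosen with earlier results of these data known. Genes were named by rule. In each direction these were the 10 called, non-overlapping genes of largest change whose mean log2 CPM was at least 1, and 6 in the fit without regular-diet CIA replicate b. Up to 4 called members of each list with the smallest p were added, or else its most abundant members, as values. Some that qualify are not named, and 1 is not reported here. Promoter windows are RefSeq's for GRCm38.p6, matched by gene. Other settings tried were other tools (DESeq2, limma voom, and limma on log2(FPKM + 1) or log2(FPKM + 0.1)), other scaling (RLE, upper quartile), other filters (none, or CPM of 1 in 3 libraries), the replicate letter as a block, only the compared groups in the fit, each library left out and, chosen after the data were seen, the adipocyte covariate.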

Additional observations from a re-analysis of the deposited data

How the results depend on the processing

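For diet in CIA the count of called genes was 588. It was 523 with RLE and 618 with upper-quartile scaling, 420 with no filter on low counts, 665 with CPM of 1 or more in 3 libraries, and 663 and 658 with limma on log2(FPKM + 1) and log2(FPKM + 0.1). It was 2000 with DESeq2, 297 with limma voom, 0 in the edgeR fit of only the groups compared and 148 with the adipocyte covariate, and 0 to 3224 with 1 library left out. The covariate moved the share of lower calls from 73.3% to 14.9%, DESeq2 to 62.1%, and leaving out regular-diet CIA replicate b to 53.7%. The deviations of same-lettered libraries from their group means correlated at r = -0.426, -0.335 and 0.463 for a, b and c, so not every pair deviated together, and the letters were not taken as pairs. With the replicate letter as a block edgeR called 0 genes for diet in CIA, 0 in sham and 0 for the interaction, with 3095 at an unadjusted p under 0.05 for diet in CIA.

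For diet in sham the count of 0 became 114 with DESeq2, 441 in the fit of only the groups compared and 22 with the adipocyte covariate, and was 0 to 6 with 1 library left out. For the interaction it became 21 with DESeq2 and was 0 under the other alternatives run, among them each library left out. The 58 named genes that were called kept their direction in all 1276 fits of the 22 alternatives and passed the threshold in 474 of them. Called genes did not overlap between the diets, so leaving out a library, rescaling or refiltering the same counts could hardly reverse them. The kept direction in those fits therefore adds no support.

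Values under the alternatives were also taken for 27 genes that were not called, some of them not named above. Of their 594 fits 20 gave the opposite sign. With the adipocyte covariate these were Adipoq (0.09), Lep (0.52), Cd36 (0.68), Mmp3 (-1.16), Mmp13 (-0.38), Csf3r (-0.29), Mki67 (-0.69) and Col2a1 (6.56). Adipoq, Lep and Cd36 belong to the list whose mean is the covariate, so the loss of their decrease in this fit is partly built in. With 1 library left out Col2a1 ran from -2.08 to 1.00, Fos from -0.55 to 2.96 and H2-Aa from -0.22 to 0.18. Fos (-0.09) was 1.38 with limma voom, 0.93 with the replicate block and 1.34 and 1.41 with limma on log2(FPKM + 1) and log2(FPKM + 0.1). H2-Aa was 0.02 in both limma fits on FPKM. The cause of the other sign changes was not tested. The effect of depth was not tested.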
